A study of Mus with 2 samples.

Results

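The genes described here act in thyroid hormone signalling and were counted in nuclei of interscapular brown adipose tissue (iBAT): the activating deiodinase *Dio2*, the thyroid hormone receptors *Thra* and *Thrb*, the retinoid X receptors *Rxra*, *Rxrb* and *Rxrg*, the corepressor *Ncor1* and the coactivators *Ncoa1* and *Med1*. They were chosen by name for these roles, and all 9 were present among the 32285 genes counted. Single-nucleus RNA-sequencing (snRNA-seq) gave 1 library from *Wtap*flox/flox mice and 1 from mice labelled *Wtap*-BKO, each made from the pooled iBAT of 4 C57BL/6 mice of 8 weeks on normal chow. *Wtap* encodes a regulatory subunit of the RNA m6A methyltransferase complex, and both groups carried floxed *Wtap* alleles. In *Wtap*-BKO mice a *Ucp1*-driven iCre was meant to remove a floxed exon in brown adipocytes, while the *Wtap*flox/flox mice had no Cre. The mice of a pool cannot be separated, so no difference between the libraries has a replicate check and no p-value is given.

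Brown fat makes its own active hormone. DIO2 converts thyroxine to triiodothyronine within the cell, cold and β-adrenergic signals raise the enzyme, and its ubiquitination turns it off. Triiodothyronine binds TRα and TRβ, which sit on DNA mostly as heterodimers with a retinoid X receptor. Without hormone the pair recruits NCoR1 with a histone deacetylase. With hormone it exchanges NCoR1 for p160 coactivators such as NCOA1 (SRC-1) and for the Mediator complex, which docks through MED1, and genes of thermogenesis and lipid synthesis such as *Ucp1* are known targets.

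On the mm10 genome (RefSeq annotation of GRCm38.p6), *Dio2* spans chr12:90724552-90739038, *Thra* chr11:98740776-98769006 and *Thrb* chr14:17659225-18040097. *Rxra* lies at chr2:27676445-27763319, *Rxrb* at chr17:34031812-34038403 and *Rxrg* at chr1:167598362-167639623. *Ncor1* lies at chr11:62315663-62457414, *Ncoa1* at chr12:4247362-4477206 and *Med1* at chr11:98152154-98193313. The genes differ widely in length, from 6.59 kb for *Rxrb* to 381 kb for *Thrb*, and the assay counts tags rather than reads per length, so levels are compared between libraries and nuclei for 1 gene at a time. Another annotated gene overlaps 6 of the 9 loci. The circadian receptor *Nr1d1* overlaps *Thra*, a long non-coding RNA (Gm26512) overlaps *Dio2*, and *Ttc19* overlaps *Ncor1*, and whether the deposited counts kept the strands apart is not given in the sources used here.

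From *Wtap*flox/flox mice 9494 nuclei were counted, with 10770604 unique molecular identifiers (UMIs, 1 per captured RNA molecule), and from mice labelled *Wtap*-BKO 8772 nuclei with 13945673. The medians were 953 and 1306 UMIs per nucleus, and 20 cell barcodes occurred in both. Mitochondrial transcripts took 7.60% and 11.7% of UMIs, and 33.0% and 74.8% of nuclei had over 5% of them. *Wtap* itself gave 50.6 and 48.3 counts per 1000000 UMIs (CPM) in adipocyte-like nuclei, a log2 ratio of −0.07 (95% interval −0.27 to 0.14), but a 3′ tag assay counts transcripts outside the floxed exon, so this level checks nothing about the deletion. Adipocyte-like nuclei, set by 12 marker genes such as *Adipoq* and *Plin1*, made up 6726 nuclei (70.8%) and 4929 nuclei (56.2%), and none of the 9 genes took part in the clustering. The markers themselves had log2 ratios from −0.48 to 1.16 between the libraries in these nuclei, with a median of 0.29.

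The 9 genes changed little in adipocyte-like nuclei. None passed 1.5-fold in either direction, where 11.1% of the 11736 genes with at least 50 UMIs were lower and 22.4% higher by that much in the library labelled *Wtap*-BKO. Leaving mitochondrial UMIs out of the totals made these shares 7.68% and 26.6% and moved the median log2 ratio of all genes from 0.05 to 0.16. The median of the 9 genes was −0.02 and became 0.10 with that scaling. The differences whose counting interval did not include 0 were lower levels of *Dio2*, *Ncoa1*, *Rxrb* and *Med1* and a higher level of *Ncor1* in the library labelled *Wtap*-BKO. With mitochondrial UMIs left out of the totals the intervals of *Rxrb* (−0.18, −0.38 to 0.02) and *Med1* (−0.07, −0.24 to 0.10) included 0, *Dio2* and *Ncoa1* stayed lower and *Ncor1* higher, and *Thra*, *Thrb*, *Rxra* and *Rxrg* were higher, at 0.21, 0.10, 0.25 and 0.26, beside the median of 0.16 for all genes. Each interval beside a level, a ratio of a single gene or a share is an exact 95% interval that takes in the error of counting alone, and variation from mouse to mouse is not part of it.

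**Figure D1:**
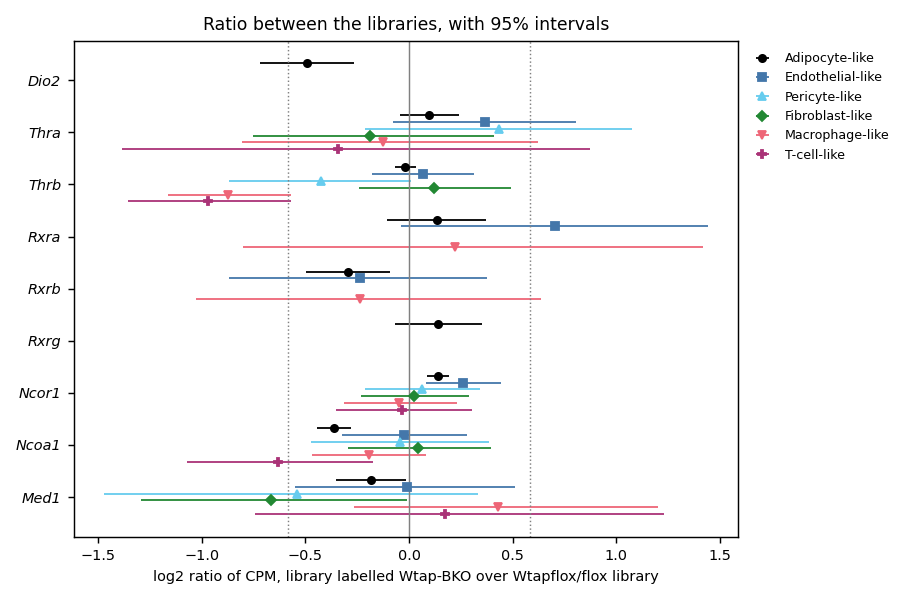
Log2 ratio of each gene, library labelled *Wtap*-BKO against the *Wtap*flox/flox library (horizontal axis), in the adipocyte-like nuclei and in the other classes where the gene had at least 50 UMIs, with exact 95% intervals for counting error and dotted lines at 1.5-fold. In adipocyte-like nuclei all 9 genes lie between the dotted lines, with *Dio2* lowest at −0.49, and most intervals in the other classes are wide.

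*Dio2*, the only one of the 3 deiodinase genes counted at more than 3 UMIs in either library's adipocyte-like nuclei, gave 370 UMIs, or 48.9 CPM (44.0 to 54.1), in the *Wtap*flox/flox library. It gave 289 UMIs, or 34.7 CPM (30.8 to 39.0), in the library labelled *Wtap*-BKO. The level was thus lower there, by a log2 ratio of −0.49 (−0.72 to −0.27), and the 2 intervals did not overlap. The difference was smaller at low than at high mitochondrial shares, but whether the 2 differ beyond counting error was not tested. In nuclei with at most 5% mitochondrial UMIs *Dio2* stood at 49.4 CPM (43.9 to 55.4) and 45.4 CPM (36.1 to 56.2), and in those above 5% at 47.1 CPM (37.3 to 58.7) and 31.7 CPM (27.5 to 36.4). The former made up 77.0% of adipocyte-like nuclei in the *Wtap*flox/flox library and 21.4% in the other, and the part of this imbalance in the result was not tested.

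The share of adipocyte-like nuclei with a *Dio2* UMI was low in both libraries. With each nucleus thinned to 1000 UMIs, which left out 3446 and 1090 shallower nuclei, it was 4.67% (3.97 to 5.44) and 3.02% (2.50 to 3.61). Over all nuclei at their full depth it was 4.80% and 4.24%. T-cell-like nuclei, which should lack the enzyme, had thinned shares of 1.64% (0.042 to 8.80) and 1.39% (0.454 to 3.22) at median depths of 983 and 977 UMIs, and these intervals overlapped those of the adipocyte-like nuclei. In the macrophage-like nuclei of the library labelled *Wtap*-BKO, which had a median of 1277 UMIs, the share was 0.643% (0.209 to 1.49), below the adipocyte interval.

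Around the enzyme, the list of *Dio2* inducers and turnover genes moved in both directions: of 7 genes with at least 50 UMIs, 3 were higher and 1 was lower past 1.5-fold, where 22.4% and 11.1% of all genes were. Across the alternatives 3 to 4 were higher and 0 to 1 lower. The β-adrenergic receptor genes *Adrb1* and *Adrb3*, which couple noradrenaline to cAMP, went from 61.7 to 158 CPM and from 220 to 469 CPM, log2 ratios of 1.35 and 1.09, and the deubiquitinase gene *Usp20* stood at 0.69. *Tshr*, the thyrotropin receptor gene, went the other way, from 52.8 to 27.5 CPM (−0.94). *Wsb1*, whose product is part of the ubiquitin ligase that marks DIO2, had a log2 ratio of −0.37. Of 8 genes for hormone transport and handling only 3 reached 50 UMIs, and 2 of these were lower, where 11.1% of all genes were. Only 1 was lower with mitochondrial UMIs left out of the totals, without nuclei above 5%, without the mitochondrial-RNA-rich cluster of adipocytes or with only nuclei above 5%. The lower genes were the transporters *Slc16a10* (MCT10), at 284 and 179 CPM, and *Slc7a8* (LAT2), at 33.2 and 17.3 CPM.

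Of the receptors, *Thrb* gave the larger number of counts: 5733 UMIs, or 757 CPM (738 to 777), in the *Wtap*flox/flox library, and 6226, or 748 CPM (729 to 767), in the other. These levels overlapped, with a log2 ratio of −0.02 (−0.07 to 0.03) that became 0.10 (0.04 to 0.15) without mitochondrial UMIs in the totals. *Thra* gave 744 and 875 UMIs, 98.3 CPM (91.3 to 106) and 105 CPM (98.3 to 112), and a log2 ratio of 0.10 (−0.05 to 0.24). With total UMIs as the scale, the intervals of both receptor genes included 0, and with mitochondrial UMIs left out neither did. Thinned to 1000 UMIs, a *Thrb* UMI was found in 51.8% and 48.2% of adipocyte-like nuclei, whereas the unthinned shares, 48.8% and 59.3%, had the opposite order at median depths of 989 and 1474 UMIs. The thinned *Thrb* shares in T-cell-like nuclei were 44.3% (31.5 to 57.6) and 17.8% (14.0 to 22.2), so in the *Wtap*flox/flox library, where 61 such nuclei were left, the interval overlapped that of the adipocyte-like nuclei. In the other 4 classes of that library the thinned shares, from 21.0% to 31.2%, had intervals below the adipocyte one.

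Within equal ranges of mitochondrial share, *Thrb* was higher in the library labelled *Wtap*-BKO: 805 and 962 CPM in nuclei with at most 5% mitochondrial UMIs, and 590 and 688 CPM in nuclei above 5%. The intervals were separate in both ranges (782 to 828 against 918 to 1008, and 554 to 628 against 668 to 708). *Ncor1* behaved likewise, at 694 and 844 CPM below the limit and 519 and 688 CPM above it. *Thra* stood between 97.6 and 105 CPM in all 4 sets of nuclei.

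The retinoid X receptors, which pair with TRs and with many other nuclear receptors, had fewer counts. *Rxra* gave 267 and 322 UMIs, at 35.3 and 38.7 CPM, with a log2 ratio of 0.13 (−0.11 to 0.37). *Rxrg*, the member most tied to differentiated muscle and fat, gave 338 and 410 UMIs, at 44.7 and 49.3 CPM (0.14, −0.07 to 0.35). *Rxrb*, the broadly expressed member, was lower in the library labelled *Wtap*-BKO, at 57.3 CPM (52.1 to 63.0) and 46.7 CPM (42.2 to 51.6), a log2 ratio of −0.30 (−0.50 to −0.09). Its ratio kept its sign under each alternative processing, from −0.37 to −0.18. Thinned to 1000 UMIs, the shares of adipocyte-like nuclei with a UMI were 6.01% (5.22 to 6.87) and 4.51% (3.87 to 5.21) for *Rxrb*, 4.27% and 4.97% for *Rxrg* and 2.90% and 3.73% for *Rxra*, against 3.28% and 5.01%, 1.64% and 1.39%, and 3.28% and 2.23% in T-cell-like nuclei.

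Retinoid X receptors also serve PPARs, retinoic acid receptors and NR4A receptors. Of 10 such partner genes with at least 50 UMIs, 2 were lower and 2 higher past 1.5-fold, near the 11.1% and 22.4% of all genes, and 4 were higher with mitochondrial UMIs left out of the totals. *Pparg*, the main regulator of fat cell differentiation, went from 2871 to 1348 CPM (−1.09), and *Ppard* from 78.7 to 46.1 CPM (−0.77). The immediate early receptor gene *Nr4a1* went from 80.7 to 341 CPM (2.08) and the retinoic acid receptor gene *Rarg* had a log2 ratio of 1.02. Over non-adipocyte nuclei the ratios were 1.80 for *Nr4a1*, 0.89 for *Rarg*, −1.05 for *Pparg* and −0.08 for *Ppard*.

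The corepressor gene *Ncor1* gave 4960 UMIs, or 655 CPM (637 to 674), in the *Wtap*flox/flox library, while it gave 6010, or 722 CPM (704 to 740), in the library labelled *Wtap*-BKO. It was higher in the latter by a log2 ratio of 0.14 (0.09 to 0.19), a small difference that kept its sign under every alternative run (0.09 to 0.41). Of the 5 other corepressor genes, *Gps2*, a subunit of the NCoR complex, was lower (−0.85) and *Hdac3*, its deacetylase, was higher (0.66) past 1.5-fold, beside 11.1% and 22.4% of all genes. None of the 5 was higher without nuclei above 5% mitochondrial UMIs or without the mitochondrial-RNA-rich cluster of adipocytes, and none was lower with only nuclei above 5%. *Tbl1xr1* stood at −0.58 and *Tbl1x* at −0.33.

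Among coactivators, *Ncoa1* gave 2658 UMIs, or 351 CPM (338 to 365), in the *Wtap*flox/flox library, and 2272, or 273 CPM (262 to 284), in the other. Its log2 ratio of −0.36 (−0.44 to −0.28) had the narrowest interval of the 4 lower genes. As with *Dio2*, the levels were close in nuclei with at most 5% mitochondrial UMIs, 368 and 381 CPM, and apart in nuclei above 5%, 292 and 243 CPM. Thinned shares of nuclei with a UMI were 28.9% and 21.2%, while the unthinned ones were 29.7% and 32.2%. *Med1*, the Mediator subunit that contacts nuclear receptors, gave 586 and 568 UMIs, at 77.4 and 68.2 CPM (−0.18, −0.35 to −0.01), and its sign changed to 0.13 when only nuclei above 5% mitochondrial UMIs were kept.

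The other p160, acetyltransferase and PGC-1 coactivator genes showed 2 of 9 lower and none higher past 1.5-fold, beside 11.1% and 22.4% of all genes, and only 1 lower with mitochondrial UMIs left out of the totals. Without nuclei above 5% mitochondrial UMIs 1 was lower and 1 higher. The lower genes were *Ppargc1a* (PGC-1α), the cold-inducible coactivator, which went from 986 to 404 CPM (−1.29), and the acetyltransferase gene *Crebbp* (−0.63). Over non-adipocyte nuclei *Ppargc1a* was lower too (−1.36) and *Crebbp* stood at 0.04. *Ncoa3* (0.47) and *Ncoa2* (0.09) had the highest ratios of the list. Of 11 further Mediator genes, *Med23* was lower (−0.82) and *Med16* higher (1.06), shares at or below the 11.1% and 22.4% of all genes, with *Med13* at −0.44 and *Med24* at 0.37. With only nuclei above 5% mitochondrial UMIs 0 were lower and 3 higher.

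Most listed genes known to respond to thyroid hormone were higher in the library labelled *Wtap*-BKO, but the list was chosen with earlier results of these data known, so its direction is no independent evidence. Of the 13 with at least 50 UMIs, 9 were higher past 1.5-fold, where 22.4% of all genes were, or 26.6% without mitochondrial UMIs in the totals (*Acly*, *Ucp1*, *Me1*, *Thrsp*, *Bcl3*, *Hr*, *Acaca*, *Dbp* and *Fasn*) and 1 was lower, and the list's median log2 ratio was 1.05, beside 0.05 for all genes. *Fasn*, *Acaca*, *Acly* and *Me1* encode enzymes of fatty acid synthesis, and *Fasn* went from 229 to 1069 CPM (2.22). Over non-adipocyte nuclei these genes stood at 1.47, 1.02, 0.13 and 0.22, in that order. *Ucp1*, the thermogenic uncoupling protein gene, stood at 0.77 in adipocyte-like nuclei and at −1.06 (−1.24 to −0.87) over non-adipocyte nuclei, and in the *Wtap*flox/flox library its endothelial-like level, 177 CPM, was above the adipocyte-like one, 152 CPM. *Dbp*, a clock output gene, went from 46.8 to 143 CPM (1.61). *Klf9* was the lower gene, at 209 and 118 CPM (−0.82), and *Gpd2* stood at −0.24. Across the alternatives 7 to 10 genes of this list were higher and 1 was lower. Over all 7 lists, 58 of 67 genes could be compared, 16 were higher and 10 lower, and the median was −0.06, where 22.4% of all genes were higher and 11.1% lower. With mitochondrial UMIs left out of the totals 20 were higher and 8 lower, without nuclei above 5% 17 and 6, and the median became 0.05 and 0.06.

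**Figure D2:**
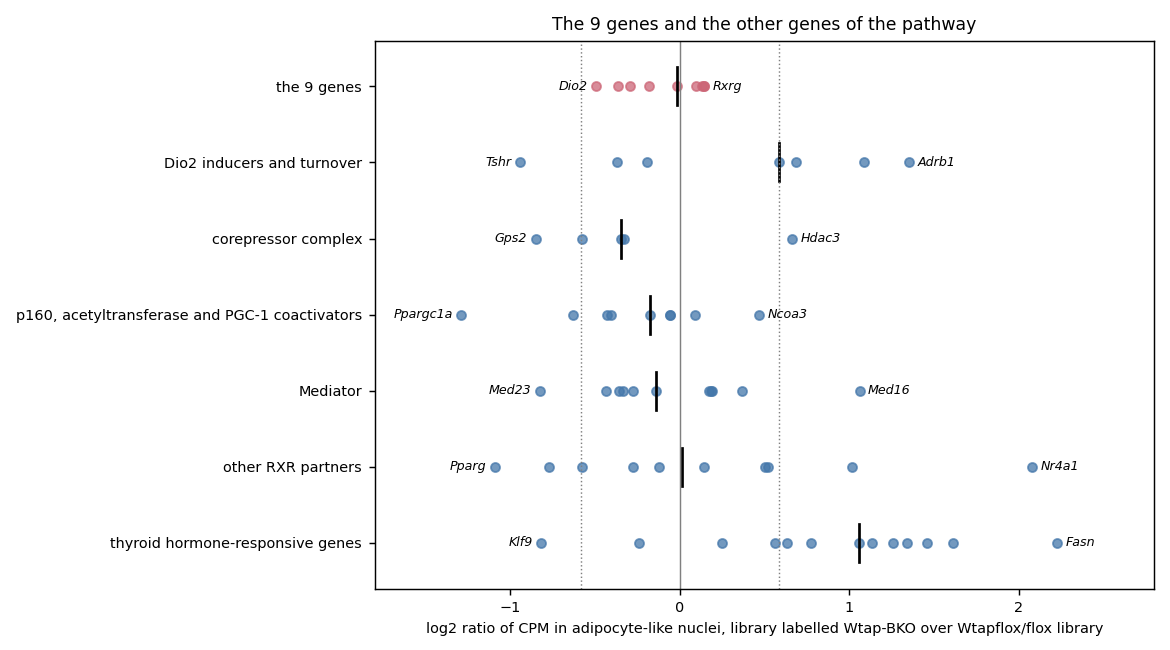
Log2 ratio in adipocyte-like nuclei, library labelled *Wtap*-BKO against the *Wtap*flox/flox library, for the 9 genes and for the genes of 6 pathway lists (all but hormone transport and handling) with at least 50 UMIs, 1 point per gene, with short black bars at the median of each list and dotted lines at 1.5-fold. The 9 genes stay between −0.49 and 0.14, while the hormone-responsive genes reach 2.22 and the coactivator *Ppargc1a* lies at −1.29.

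Adipocyte-like nuclei fell into 5 clusters. Cluster 0 (2874 and 1462 nuclei) had no distinguishing subtype marker. Cluster 1 (1682 and 1775 nuclei) was rich in mitochondrial RNA, with medians of 7.66% and 17.2%. Cluster 2 (1827 and 878 nuclei) was led by *Foxp2* and included the brown fat transcript *Lncbate10*. Cluster 9 (199 and 473 nuclei) was white-like by 6 of 7 markers and cluster 10 (144 and 341 nuclei) interferon-responsive by 8 of 9.

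The *Dio2* ratio between libraries was not the same in each cluster, and differences between clusters were not tested. In cluster 1 *Dio2* stood at 47.8 CPM in the *Wtap*flox/flox library and 24.2 CPM in the library labelled *Wtap*-BKO (−0.98, −1.47 to −0.50), and in cluster 0 at 51.3 and 35.5 CPM (−0.53). In cluster 2 it stood at 51.2 and 57.1 CPM (0.16, −0.21 to 0.52). Clusters 9 and 10 had few counts, with ratios of −0.39 (−1.93 to 1.42) and 0.23 (−1.08 to 1.81). The white-like cluster had the lowest *Dio2* level in both libraries, 18.6 and 14.2 CPM, although its interval overlapped that of the next cluster.

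*Thrb* was lowest in the mitochondrial-RNA-rich cluster in both libraries, at 587 and 566 CPM, below the next cluster with no overlap of intervals. It was highest in cluster 10 (891 CPM) in the *Wtap*flox/flox library and in cluster 2 (931 CPM) in the other, and it overlapped with neighbouring clusters in both. Between libraries it was higher in cluster 0 (722 and 783 CPM, 0.12, 0.02 to 0.22) and lower in cluster 10 (891 and 687 CPM, −0.38, −0.64 to −0.10). *Thra* had a ratio of 0.36 (0.10 to 0.63) in cluster 0 and overlapped between neighbouring clusters in either library. Clusters further apart were separate in the library labelled *Wtap*-BKO. There cluster 10, at 64.7 CPM (46.7 to 87.5), lay below cluster 0, at 127 CPM (111 to 144), and below clusters 9 and 1.

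*Rxra* was highest in the white-like cluster in both libraries, at 89.3 and 65.2 CPM, against 39.7 and 41.7 CPM in the next clusters, with overlapping intervals. *Rxrb* was below 0 in all 5 clusters, from −0.07 in cluster 1 to −1.01 in cluster 10, with intervals that included 0 in each. *Rxrg* was higher in the library labelled *Wtap*-BKO in cluster 2, at 41.8 and 59.5 CPM (0.51, 0.14 to 0.89). *Ncoa1* was below 0 in all 5 clusters, most in cluster 1 (298 and 196 CPM, −0.61, −0.78 to −0.43) and with intervals that included 0 in clusters 9 and 10. *Ncor1* was above 0 in all 5, with 0.29 in cluster 0, and its intervals excluded 0 in clusters 0, 1 and 2. *Med1* stood at 123 and 66.1 CPM in the white-like cluster (−0.89, −1.51 to −0.25), on 33 and 70 UMIs, and at 0.09 in cluster 2.

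**Figure D3:**
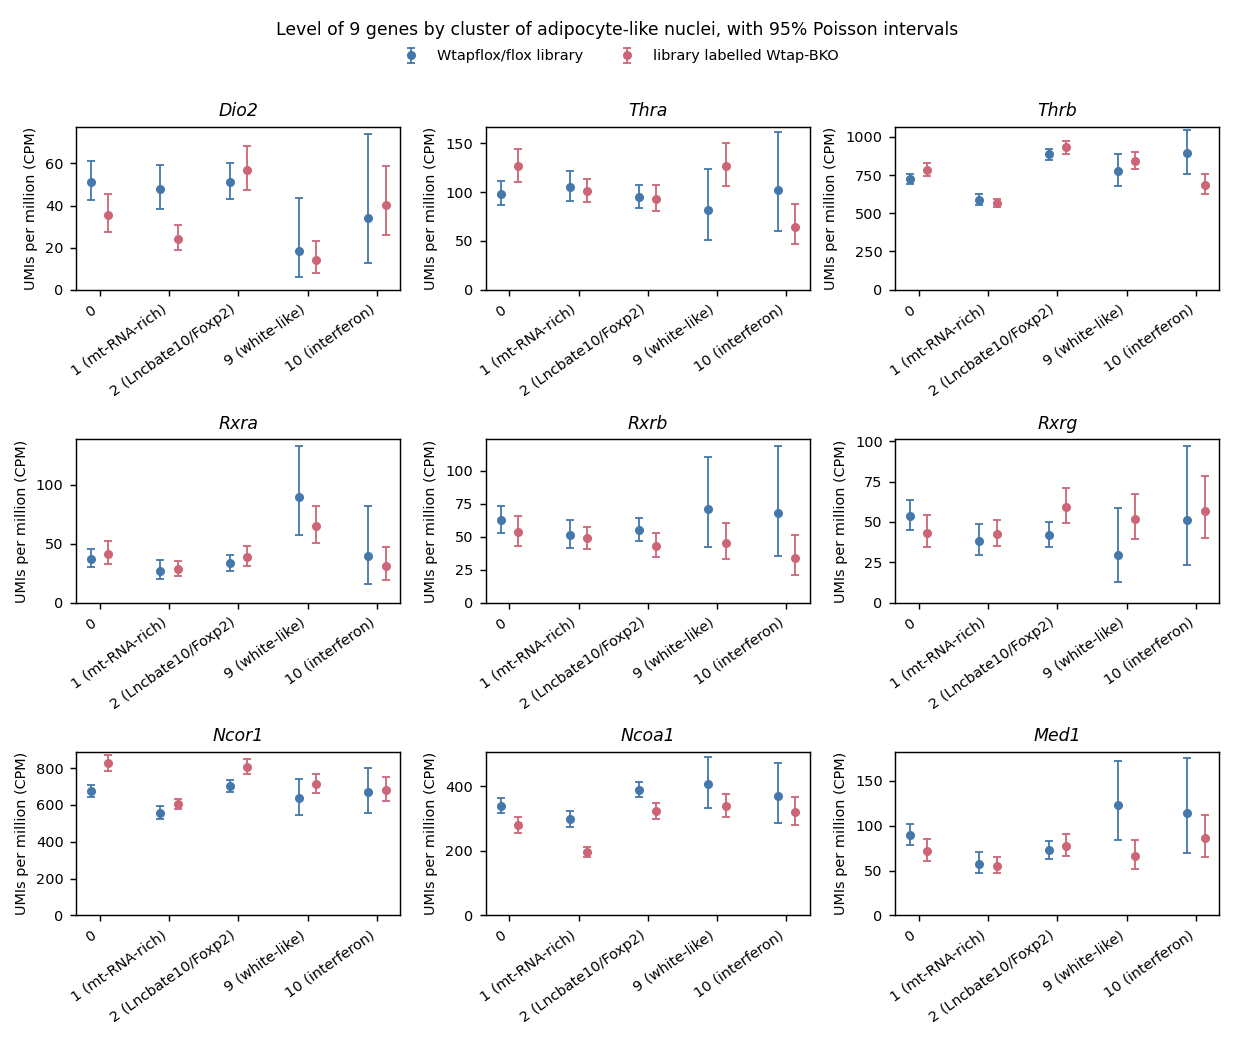
Level of each gene (CPM, vertical axis, 1 panel per gene) in the 5 adipocyte clusters for the *Wtap*flox/flox library and the library labelled *Wtap*-BKO, with exact 95% intervals for counting error. *Thrb* is lowest in the mitochondrial-RNA-rich cluster in both libraries (587 and 566 CPM), and *Dio2* in that cluster is 47.8 and 24.2 CPM.

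Outside the adipocytes, endothelial-like (1168 and 820 nuclei), pericyte-like (476 and 247), fibroblast-like (275 and 492), macrophage-like (298 and 1179) and T-cell-like nuclei (126 and 744) could be compared. A further 425 and 361 nuclei formed a cluster led by mitochondrial transcripts and were given no name. The macrophage-like cluster held all 9 macrophage markers but also 8 of 8 B-cell markers at 2-fold or more over the other nuclei. Droplet assays pick up free RNA from other cells, so the level of each gene was set as a percentage of its adipocyte level beside the same percentage for the 12 adipocyte markers.

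*Thrb* and *Dio2* were highest in adipocyte-like nuclei in both libraries. *Thrb* stood at 757 CPM there against 488 CPM in the next class (T-cell-like) in the *Wtap*flox/flox library, and at 748 against 285 CPM (fibroblast-like) in the library labelled *Wtap*-BKO, with no overlap of intervals in either. *Dio2* stood at 34.7 against 13.8 CPM in the library labelled *Wtap*-BKO without overlap, and at 48.9 against 27.1 CPM with overlap in the other. In none of the 10 combinations of class and library did the whole interval of *Dio2*, *Thrb* or *Rxrg* lie above the range of the adipocyte markers, so their counts outside adipocytes are not read as expression. Absence is not shown either, because *Dio2* and *Rxrg* had few UMIs and wide intervals there. *Rxrg* in pericyte-like nuclei of the library labelled *Wtap*-BKO, at 85.7% (50.3 to 137), lay above the marker median of 32.8%. *Thrb*, for example, stood at 34.6% and 38.1% of its adipocyte level in fibroblast-like nuclei, where the markers had medians of 37.4% and 27.5%.

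The coregulators lay above that range, with their whole interval, in more combinations: *Ncoa1* in 6 of 10 combinations, *Ncor1* in 5 and *Med1* in 4, with *Thra* and *Rxra* in 3 and *Rxrb* in 2. *Ncoa1* had its highest level in macrophage-like nuclei, at 408 and 357 CPM, or 116% and 131% of its adipocyte level, with an interval that overlapped that of the next class in both libraries. In fibroblast-like nuclei *Thra*, *Rxra*, *Ncor1*, *Ncoa1* and *Med1* lay above the markers in both libraries. No gene lay above them in endothelial-like or pericyte-like nuclei, where single markers set a high upper end: *Adipoq* reached 127% and 81.9% in endothelial-like nuclei, against marker medians of 54.2% and 37.6%. *Ncor1* lay above that median with its whole interval in endothelial-like nuclei of both libraries, at 64.8% (59.5 to 70.6) and 70.6% (63.9 to 77.7). In pericyte-like nuclei it did so too, at 65.0% (57.1 to 73.7) and 61.7% (53.1 to 71.3), against marker medians of 42.8% and 32.8%. *Thra*, *Rxrb* and *Med1* also lay above the median in endothelial-like nuclei of both libraries.

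For *Rxra*, *Rxrb* and *Med1* the interval of each class overlapped that of the next in both libraries, and for *Thra* in 1 of them. The highest and lowest classes were still separate for *Rxrb* and *Med1* in the library labelled *Wtap*-BKO. The intervals were 42.2 to 51.6 against 15.8 to 36.0 CPM for *Rxrb*, and 66.8 to 104 against 23.2 to 63.8 CPM for *Med1*. *Thra* was highest in fibroblast-like nuclei (113 CPM) in the *Wtap*flox/flox library, next to adipocyte-like nuclei with overlapping intervals, and in the library labelled *Wtap*-BKO it fell into 2 levels, from 105 to 91.8 CPM in the adipocyte-like, fibroblast-like, pericyte-like and endothelial-like nuclei and 59.1 and 48.1 CPM in the macrophage-like and T-cell-like nuclei. *Rxra* ranged from 23.3 to 42.1 CPM and from 21.5 to 42.2 CPM over the classes of either library, with each class overlapping the next. *Rxrb* ranged from 29.1 to 57.3 CPM and from 24.4 to 46.7 CPM, lowest in fibroblast-like nuclei both times, and neighbours overlapped. *Med1* ranged from 57.9 to 104 CPM and from 39.9 to 84.0 CPM, with a different class at the top in each library. *Ncor1* was highest in adipocyte-like nuclei in both libraries, overlapping T-cell-like nuclei in the *Wtap*flox/flox library, and it had its lowest level in macrophage-like nuclei, at 405 and 392 CPM, overlapping the next class.

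**Figure D4:**
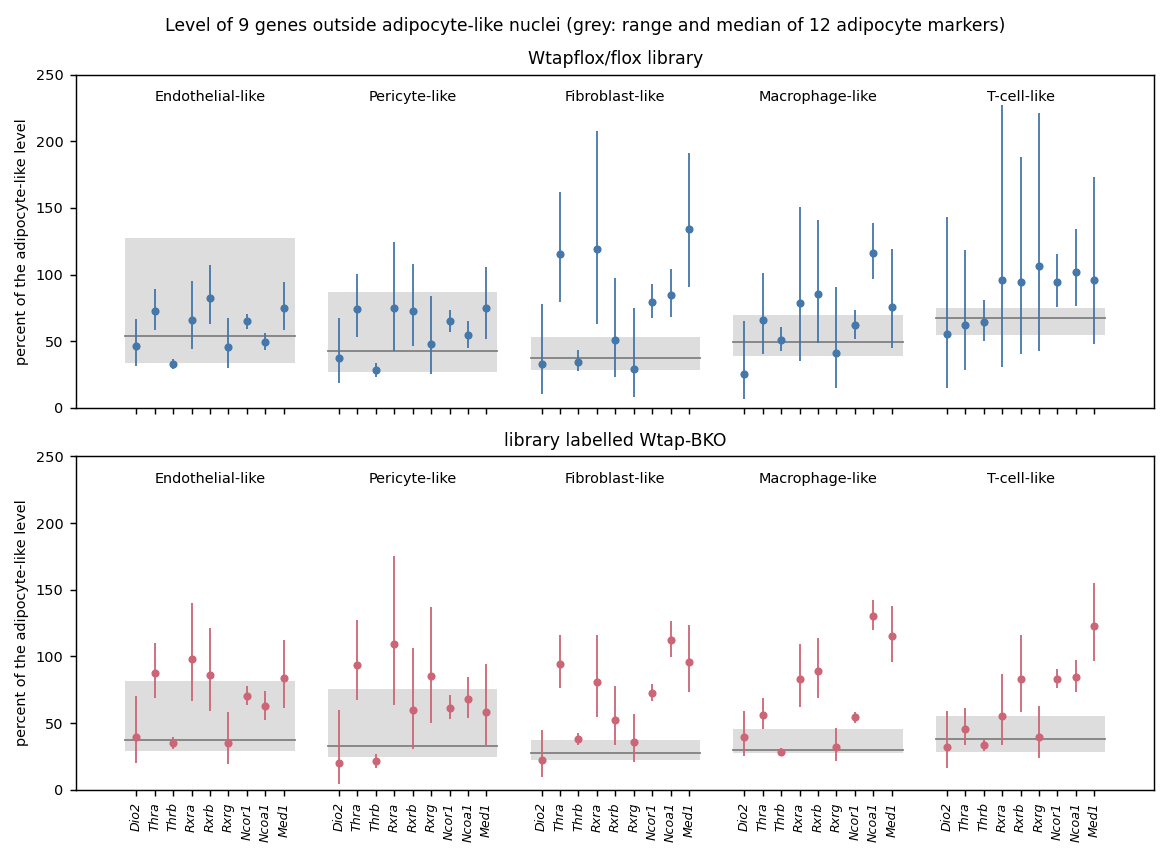
Level of each gene in a class as a percentage of its level in adipocyte-like nuclei of the same library (vertical axis) with exact 95% intervals, beside the range (grey band) and median (line) of 12 adipocyte markers. *Dio2*, *Thrb* and *Rxrg* lie in or overlap the band in every class, and *Ncoa1* rises above it in macrophage-like nuclei (116% and 131%).

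Between libraries, few of the 9 genes passed 1.5-fold in these classes. *Dio2* and *Rxrg* were under 50 UMIs in all of them, and *Rxra* and *Rxrb* in pericyte-like, fibroblast-like and T-cell-like nuclei, so they were not counted there. Over all non-adipocyte nuclei pooled *Dio2* reached 63 and 61 UMIs, at 19.7 and 10.9 CPM, and was lower too (−0.86, −1.39 to −0.33). No single class outside the adipocytes had a *Dio2* interval that excluded 0, and the makeup of the pool differed between the libraries. Because *Dio2* counts there are not read as expression, the pooled ratio does not show a lower level in other cells. In endothelial-like nuclei *Rxra* was the 1 higher gene of 7 with at least 50 UMIs (33 and 33 UMIs, 23.3 and 37.9 CPM, 0.70, −0.04 to 1.44), where 28.8% of all genes were higher and 5.77% lower. Its ratio was −0.15 without nuclei above 5% mitochondrial UMIs. *Ncor1* stood at 0.26 (0.08 to 0.44) there, and at −0.15 without those nuclei and −0.040 with median-of-ratios scaling. In pericyte-like nuclei none of 5 genes passed, where 10.2% of all genes were lower and 15.7% higher. In fibroblast-like nuclei *Med1* was the 1 lower gene of 5 (32 and 67 UMIs, 104 and 65.3 CPM, −0.66, −1.29 to −0.01), where 10.4% were lower and 20.4% higher.

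*Thrb* was lower in macrophage-like nuclei of the library labelled *Wtap*-BKO, at 126 and 401 UMIs, or 387 and 212 CPM (−0.87, −1.16 to −0.57). It was the 1 lower gene of 7, where 14.2% of all genes were lower and 23.4% higher. In T-cell-like nuclei *Thrb* was lower too, at 72 and 243 UMIs, or 488 and 249 CPM (−0.97, −1.36 to −0.57), as was *Ncoa1*, at 359 and 232 CPM (−0.63, −1.07 to −0.17). These were 2 of 5 genes, where 17.5% of all genes were lower and 28.0% higher. The 12 adipocyte markers had ratios on both sides of 0 in these classes, with a lowest, median and highest of −1.22, −0.34 and 0.52 in macrophage-like nuclei and of −1.29, −0.54 and 0.56 in T-cell-like nuclei, and 5 and 6 of 12 were lower past 1.5-fold. With only nuclei above 5% mitochondrial UMIs, an alternative chosen after seeing the data, *Thrb* stood at −0.02 (−0.68 to 0.71) in macrophage-like nuclei, and both T-cell-like ratios turned, to 1.09 (−0.29 to 2.98) for *Thrb* and 0.87 (−0.51 to 2.76) for *Ncoa1*. *Thrb* stood at 51.1% and 28.3% of its adipocyte level in macrophage-like nuclei, where the markers had medians of 49.5% and 29.6%.

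At a finer clustering the macrophage-like nuclei split, and *Thrb* differed among the pieces. In the piece with the most macrophage markers (174 and 434 nuclei) it stood at 258 and 227 CPM (−0.18, −0.68 to 0.34), and in the piece with the most dendritic cell markers (116 and 687 nuclei) at 520 and 208 CPM (−1.32, −1.70 to −0.94). The adipocyte markers had medians of −0.34 and −0.42 in these pieces. *Thrb* in the former nuclei did not differ between libraries beyond counting error, and the lower *Thrb* count of the macrophage-like class lay mainly in the latter nuclei. As stated above, *Thrb* counts outside adipocytes are not read as expression, and the part of adipocyte RNA in this difference was not tested. The remaining 8 and 58 nuclei had B-cell markers.

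**Figure D5:**
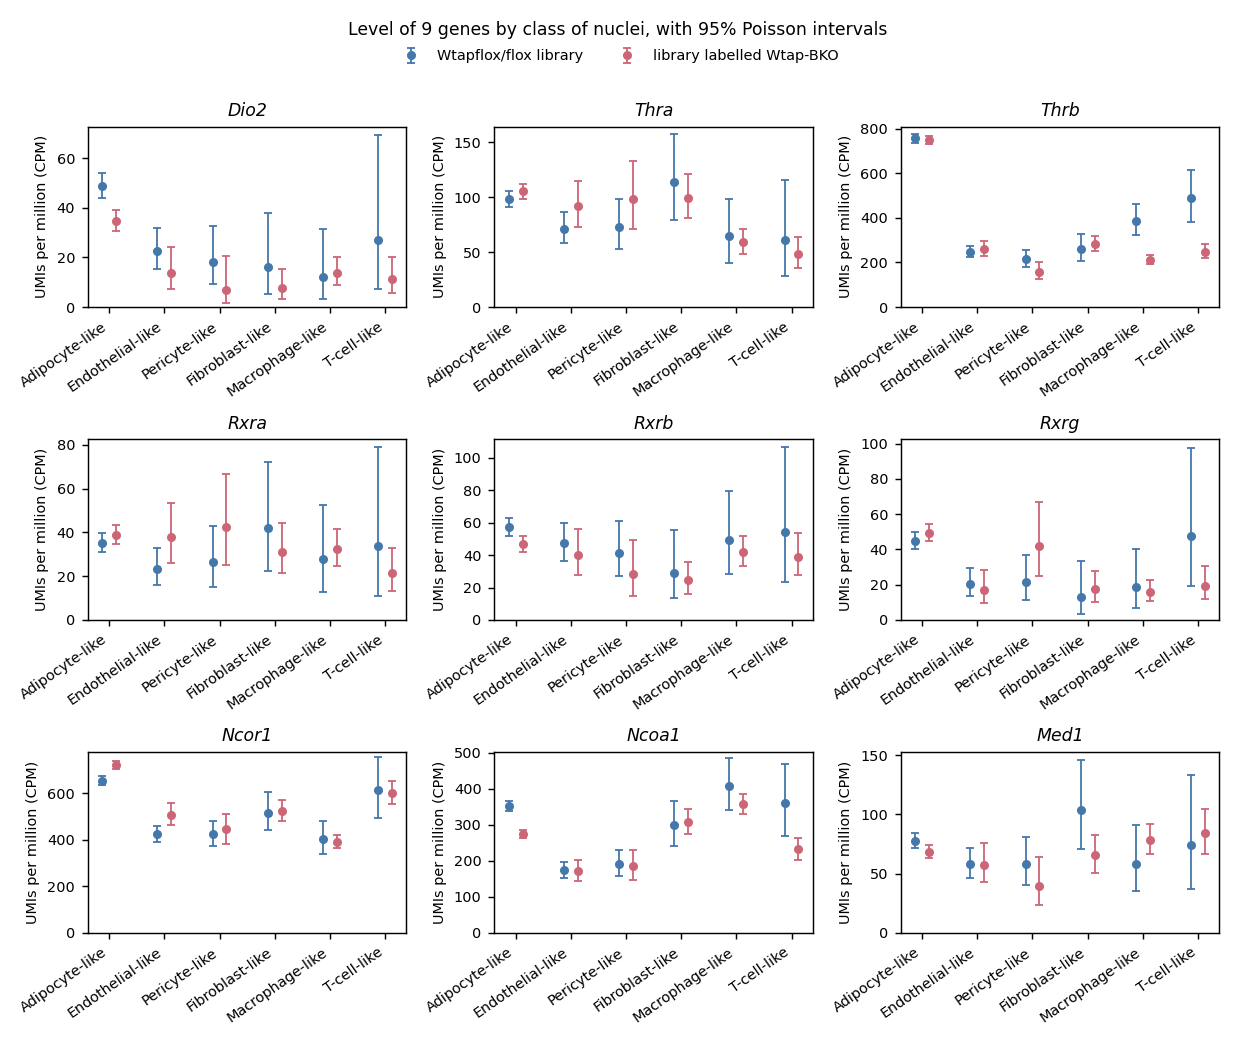
Level of each gene (CPM, vertical axis, 1 panel per gene) in the 6 named classes of nuclei for the *Wtap*flox/flox library and the library labelled *Wtap*-BKO, with exact 95% intervals for counting error. *Thrb* is highest in adipocyte-like nuclei in both libraries (757 and 748 CPM), and *Ncoa1* has its highest level in macrophage-like nuclei (408 and 357 CPM), overlapping the next class.

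Over the 22 profiles made by cluster and library with at least 100 nuclei each, the genes most like 8 of the 9 members were found by Pearson's r of log2 CPM, given as a description because profiles share libraries. *Thrb* was most like the kinase gene *Sik2* (0.98), *Ncoa1* like *Nt5c2* (0.97), *Ncor1* like *Rbbp6* (0.96) and *Dio2* like *Gtf2ird1* (0.91). *Rxrb* was most like *Las1l* (0.90), *Rxra* and *Med1* like *Aldh1l1* and *Fnbp4* (both 0.86) and *Thra* like the clock-related factor gene *Hlf* (0.81). Among the 9 genes themselves, *Thrb* and *Ncor1* were the closest pair (0.84), followed by *Ncoa1* with *Ncor1* (0.80), whereas *Thra* and *Rxra* reached only 0.55 and 0.47 with their closest members.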

How the data were processed

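The values deposited by the authors are raw UMI counts per gene and nucleus, with nothing normalized. Per the file headers the counts were made with Cell Ranger 5.0.0, and the submitters' processing notes name the mm10 build. The treatment of intronic reads is not given in the sources used here. Nuclei with at least 500 UMIs were used, which kept every barcode. Libraries were log-normalized, integrated by CCA and clustered in Seurat 5.3.0 (R 4.3.3) with 2000 variable features (without the 9 genes, the pathway genes and *Wtap*), 20 principal components and resolution 0.5. Clusters were named from fixed markers. Adipocyte clusters held at least 50% of 12 adipocyte markers at 1.5-fold, and other classes at least 3 markers at 2-fold. The 9 genes, marker lists and pathway lists were chosen with earlier results of these data known.

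UMIs were summed per library and class and divided by the class total (CPM). Poisson, conditional binomial and Clopper-Pearson intervals (95%) came from scipy 1.17.1 under Python 3.11.15. Only the conditional binomial interval of the ratio was run on simulated counts. These were Poisson draws from the sums of adipocyte-like nuclei, without variation between nuclei or mice. With 1 library per genotype no test was run, and ratios past 1.5-fold were counted among genes whose UMIs in the libraries added up to at least 50. Text names all 9 genes, plus the 2 highest and 2 lowest ratios of each pathway list and any list gene past 1.5-fold. A pathway gene and a likeness gene that this rule selects are not reported here. Likeness used log2(CPM + 1) over genes with a mean of at least 20 CPM. Scrublet in scanpy 1.11.5 called 3 and 0 doublets and was judged not to have worked, so no nuclei were removed, and an alternative removed the 721 and 616 nuclei with the highest scores. 38 symbols belonged to several genes, none of them a member, and the first listed was used. The alternatives were other nuclei, denominators, scaling, clustering and count minimums, 11 in all.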

Additional observations from a re-analysis of the deposited data

Results flagged for a closer look

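*Thrb* had ratios of opposite sign in adipocyte clusters, with counting intervals that excluded 0 in both: its log2 ratio (library labelled *Wtap*-BKO against *Wtap*flox/flox) was 0.12 in cluster 0 and −0.38 in the interferon-responsive cluster 10. The latter rests on 144 and 341 nuclei, and the difference between the clusters was not tested because each has 1 library per genotype.

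*Ncoa1* stood at −0.36 in adipocyte-like nuclei and at 0.30 over all other nuclei pooled, and this difference was not tested either. No single class of the others had an interval above 0 for *Ncoa1*, and the macrophage-like class, where its level was highest, made up 3.14% of the nuclei in the *Wtap*flox/flox library and 13.4% in the other. The part of that makeup in the pooled value was not tested.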

How the results depend on the processing

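The counts of 0 lower and 0 higher genes among the 9 in adipocyte-like nuclei were the same under all 11 alternatives. The median log2 ratio of the 9 genes moved from −0.02 to −0.11 with at least 1000 UMIs per nucleus, 0.10 without nuclei above 5% mitochondrial UMIs, 0.10 with mitochondrial UMIs left out of the totals, 0.086 with *Gm42418* left out as well, 0.051 without the mitochondrial-RNA-rich cluster and 0.13 with only nuclei above 5%, an alternative chosen after seeing the data. Ratios whose interval excluded 0 turned sign as follows, and the cause was not tested; others, such as *Rxra* in endothelial-like nuclei (0.70 to −0.15), also changed sign. Without nuclei above 5%, *Ncoa1* in adipocyte-like nuclei became 0.048, and *Ncor1* became −0.16 over all non-adipocyte nuclei and −0.15 in endothelial-like nuclei. With median-of-ratios scaling, *Ncor1* became −0.15 over non-adipocyte and −0.040 in endothelial-like nuclei, and *Ncoa1* −0.0044 over non-adipocyte nuclei. With only nuclei above 5%, *Med1* in adipocyte-like nuclei became 0.13, *Thrb* 0.44 over non-adipocyte and 1.09 in T-cell-like nuclei, and *Ncoa1* 0.87 in T-cell-like nuclei. In adipocyte-like nuclei *Dio2* (−0.57 to −0.12), *Rxrb*, *Ncor1*, *Rxra*, *Rxrg* and *Thra* kept their sign throughout, and *Thrb* ranged from −0.11 to 0.26. *Dio2* without nuclei above 5% was −0.12 (−0.49 to 0.23), and *Thrb* in macrophage-like nuclei ranged from −1.35 without the highest Scrublet scores to −0.02 with only nuclei above 5%, and was −0.18 at resolution 1.0. No paired analysis was possible because each genotype has 1 library. Depth limits the rarer classes, where *Dio2* rests on as few as 3 UMIs.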

Other observations

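Some pathway genes had higher levels in at least 1 library in a class outside the adipocytes than in adipocyte-like nuclei. *Vdr*, the vitamin D receptor gene, stood at 68.0 and 96.1 CPM in pericyte-like nuclei (41 UMIs in each library), against 1.85 and 0.841 CPM in adipocyte-like nuclei. *Nr1h3* (LXRα) stood at 119 and 148 CPM in pericyte-like nuclei, against 65.3 and 72.1 CPM in adipocyte-like nuclei. *Slc16a10*, the hormone transporter gene that was lower in adipocyte-like nuclei of the library labelled *Wtap*-BKO, stood at 221 and 306 CPM in macrophage-like nuclei, against 284 and 179 CPM, so it was above the adipocyte level in that library only. Fibroblast-like nuclei had 350 and 448 CPM of *Klf9*, against 209 and 118 CPM in adipocyte-like nuclei.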
